A study of Mus musculus with 147 samples.

Results

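The cytosolic ribosomal proteins are the proteins of the large (60S) and small (40S) subunits of the ribosome, and their mRNAs were followed here through mouse male germ cell development. Of the 31053 genes in the UMI table, 80 were taken as members by their symbol, Rpl or Rps and a number with no pseudogene suffix, 49 of the large and 31 of the small subunit. Single cells of 28 time-points, from embryonic day (E) 6.5 over postnatal day (PND) 35 to the adult, were sequenced with a modified STRT-seq, in which every cDNA molecule is tagged with its own barcode (UMI, for unique molecular identifier) and only 3′ ends are read. The embryos and mice were offspring of C57BL/6 females and BVSC males, which carry the transgenes Prdm1-mVenus and Dppa3-ECFP. All cells used here are wild-type, and the cells of knockout mice were not analysed here. The study selected male embryos and gonads by PCR at E10.5 and E11.5. For earlier embryos it states no selection by sex, and some E10.5 cells carry None in place of Male in their names. Reporter-positive (BVSC+) cells were sorted from whole embryos from E8.5 to E10.5 and from male gonads from E11.5 to E18.5, while E6.5 and E7.5 cells were collected in another way. From E14.5 on the study took gonadal cells positive for Dppa3-ECFP alone, as the Prdm1-mVenus signal falls, so the gate was not the same throughout. From these gonads Negative cells were taken as well. Per the study, postnatal testis cells were picked at random among those that looked like germ cells. PND30 cells were in part sorted by DNA content (1N, 2N and 4N).

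A pool is the cells of 1 time-point and 1 biological replicate (R1, R2 and so on), and UMIs were summed per pool and cell class over at least 10 cells. The 7 stage groups were migrating PGCs (primordial germ cells, E9.5 and E10.5, 5 pools), mitotic PGCs (E11.5 and E12.5, 4 pools) and mitotic arrest PGCs (E15.5 and E16.5, 4 pools), followed by quiescent prospermatogonia (E18.5 and PND0, 4 pools) and spermatogonia (PND5 to PND7, 6 pools). Spermatocyte-like and round spermatid-like cells came from PND30, PND35 and the adult (5 pools each) and were named by clustering without any ribosomal protein gene. Migrating PGCs were the BVSC+ cells of their time-points in clusters 8 and 20, and quiescent prospermatogonia the cells of cluster 2, since Sox2 in cluster 8 and the blood cell gene Fcer1g in cluster 2 were among the 10 leading genes. The cells of Adult R1, E17.5 R1 and PND8 R1 fell largely into clusters of their own that were left unnamed and are in none of these groups. Libraries share the same 96 cell barcodes, and 1 library holds cells of several pools. The 14 germ cell markers summed to 1624 to 1837 counts per 1000000 UMIs (CPM) in migrating PGCs and to 3517 to 4864 CPM in arrest PGCs. Ddx4 and Dazl, which define later germ cells, were still low in the cluster that holds most migrating PGCs, at 28.9 and 7.02 CPM. The 10 spermatocyte markers summed to 2542 to 2836 CPM in spermatocyte-like cells and to 993 to 1127 CPM in spermatogonia. The 10 round spermatid markers summed to 2840.3 to 8519.6 CPM in round spermatid-like and to 772 to 1396 CPM in spermatocyte-like cells.

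A ribosome holds 1 copy of nearly all of its proteins, and their mRNAs are short, abundant and translated together through a pyrimidine tract at their 5′ end. In male meiosis the X chromosome is transcriptionally silenced, and several X-linked housekeeping genes have autosomal copies that are active in the testis. Among the members, 4 are X-linked: Rpl10, which joins the 60S subunit last and lies near its catalytic centre, Rpl36a, Rpl39 of the peptide exit tunnel, and Rps4x of the 40S subunit. Their autosomal paralogues in the table are Rpl10l, Rpl36al and Rpl39l. Other paralogues among the members are Rpl3l (of Rpl3, known from muscle), Rpl7l1, Rpl22l1 and Rps27l.

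Promoter sequence of RefSeq (GRCm38.p6) was found for 61 of the 80 members. The letters TTCCGG, the core of sites bound by ETS factors, were searched on both strands of a window of 100 bases (70 before and 30 from the start) and occurred in 24 of these (39.3%) and in 9.61% of all 27025 genes. The pyrimidine run CTTTC on the gene's own strand was found in 41.0% of the members and in 14.4% of all genes, TATAAA on the gene's strand in 4.92% and 4.33%, and CACGTG on both strands in 3.28% and 3.66%. These matches describe the letters in the window and no binding. The windows of 2 X-linked members and of their autosomal paralogues are printed because the levels of these pairs parted in the data below, with TTCCGG or its reverse complement in capitals. They lie at chrX:74270746-74270845 (plus strand, Rpl10), chr12:66284372-66284471 (minus strand, Rpl10l), chrX:37085193-37085292 (minus strand, Rpl39) and chr16:10170158-10170257 (plus strand, Rpl39l).
Rpl10: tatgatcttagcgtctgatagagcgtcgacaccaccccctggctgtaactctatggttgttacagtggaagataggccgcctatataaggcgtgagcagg
Rpl10l: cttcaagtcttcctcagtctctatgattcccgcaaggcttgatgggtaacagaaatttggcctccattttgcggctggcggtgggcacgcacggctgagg
Rpl39: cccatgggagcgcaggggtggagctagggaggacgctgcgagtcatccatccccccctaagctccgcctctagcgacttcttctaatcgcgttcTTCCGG
Rpl39l: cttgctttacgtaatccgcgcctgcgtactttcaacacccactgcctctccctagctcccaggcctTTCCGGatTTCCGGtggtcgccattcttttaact
The windows of Rpl10 and Rpl10l held no TTCCGG, and that of Rpl39l held it 2 times.

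The 11598 wild-type cells past the filter on genes and UMIs had a median of 284518 UMIs and 9489 genes, and pools held 15163519 to 197524235 UMIs. The members took 4.68% of all these UMIs. Their share was tied to the depth of the cell in every class. Within pools, the Spearman correlation of a cell's share with its UMI count had a median of −0.933 (−0.965 to −0.839) over 27 pools of germ cells and of −0.693 (−0.807 to −0.198) over 10 pools of spermatocyte-like and round spermatid-like cells, a description of cells that share libraries. In migrating PGCs the share was 12.6 ± 0.786% in cells of 50000 to 100000 UMIs (SD, n = 3 pools) and 5.80 ± 0.107% in cells of 400000 to 600000 UMIs (SD, n = 5 pools). The highest count in 1 cell was 1410 UMIs for a member, Rpl13, and 4142 UMIs for any gene, the placental gene Prl3d1. What lies behind this relation was not tested, and shares are therefore also given within a fixed range of UMIs per cell.

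**Figure D1:**
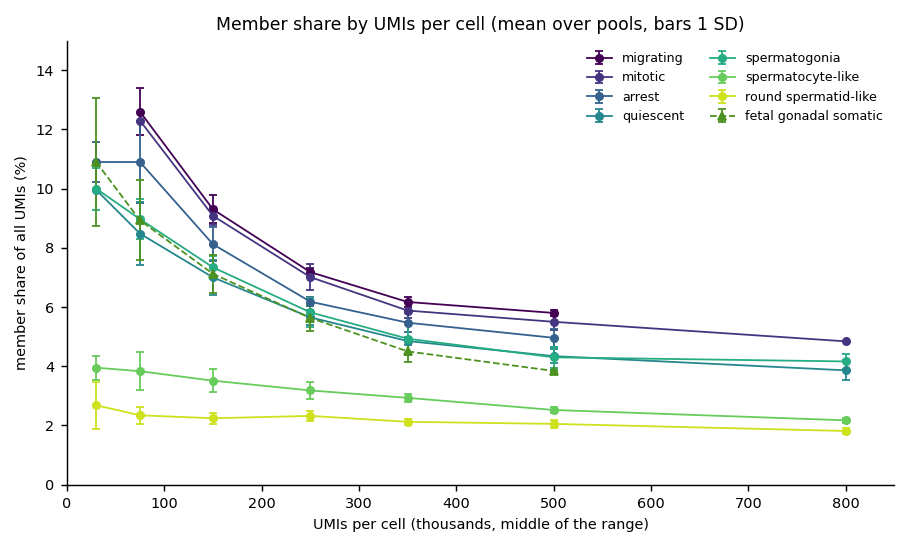
Mean share of the 80 members in a cell's UMIs (percent) against the range of UMIs per cell, for each stage group and for fetal gonadal somatic cells (dashed). Bars are 1 SD over pools and are absent where a range held 1 pool. Migrating PGCs fell from 12.6% to 5.80% across the ranges, while round spermatid-like cells had 2.24% at 100000 to 200000 UMIs.

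The members' share was highest in PGCs, lower in prospermatogonia and lowest after meiosis. It was 6.54 ± 0.269% in migrating PGCs (SD, n = 5, 6.24% to 6.92%), 6.12 ± 0.312% in mitotic PGCs (SD, n = 4) and 5.94 ± 0.497% in arrest PGCs (SD, n = 4), and the ranges of neighbouring groups overlapped. In quiescent prospermatogonia it was 4.81 ± 0.384% (SD, n = 4, 4.43% to 5.24%), below every pool of arrest PGCs (5.29% to 6.49%). Spermatogonia, at 5.08 ± 0.294% (SD, n = 6, 4.74% to 5.51%), overlapped with quiescent prospermatogonia. Spermatocyte-like cells were at 2.64 ± 0.136% (SD, n = 5, 2.49% to 2.86%) and round spermatid-like cells at 2.03 ± 0.0582% (SD, n = 5, 1.94% to 2.09%), both below all earlier pools and without overlap with each other.

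The order of the stages was the same in cells of 200000 to 400000 UMIs, with 6.52%, 6.22%, 5.78%, 5.16%, 5.28%, 3.02% and 2.18% from migrating PGCs to round spermatid-like cells. Between the stage groups and over cells of all depths, E13.5 germ cells stood above their neighbours at 7.29% and 7.31% in the 2 replicates, and E14.5 germ cells were at 6.46% in both. In cells of 200000 to 300000 UMIs both days together had 7.28%, beside 7.18% in migrating and 7.01% in mitotic PGCs. At 300000 to 400000 UMIs the same groups had 6.42%, 6.17% and 5.88%. Large and small subunit members moved alike, at 3.68% and 2.87% in migrating PGCs and at 1.16% and 0.874% in round spermatid-like cells. The share of the mitochondrially encoded genes was 1.31% in migrating PGCs, 1.86% in arrest PGCs, 0.740% in spermatocyte-like cells and 0.361% in round spermatid-like cells.

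**Figure D2:**
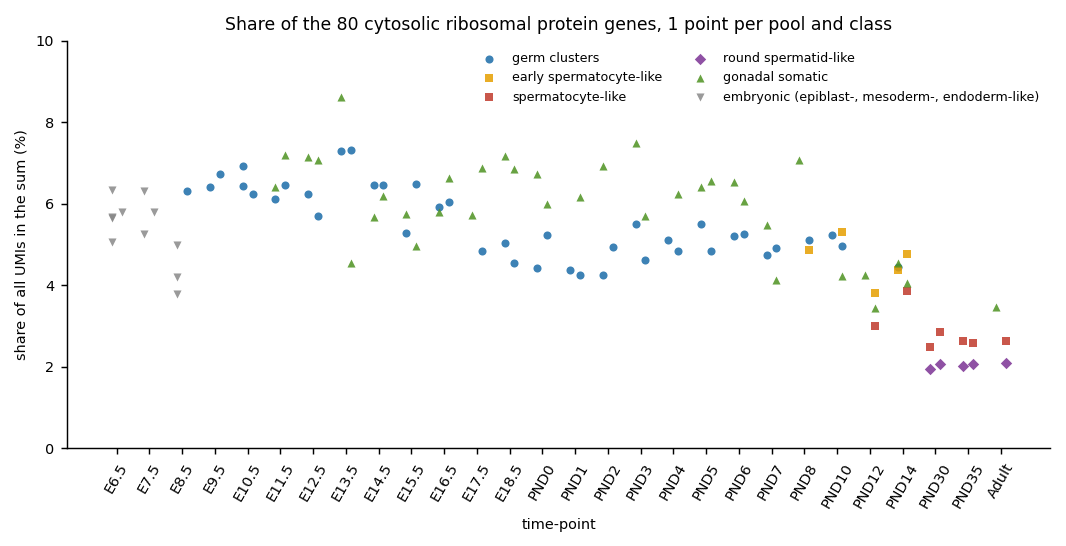
Share of the 80 members in all UMIs of a pool (percent) over the time-points, 1 point for each pool and cell class. Germ cells peaked at E13.5 with 7.29% and 7.31%, and spermatocyte-like and round spermatid-like pools of PND30, PND35 and the adult lay between 1.94% and 2.86%.

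Single members differed widely in level, and UMI counts are molecules with no scaling by length. The median member was at 848 CPM in migrating PGCs, 767 CPM in arrest PGCs, 603 CPM in quiescent prospermatogonia, 675 CPM in spermatogonia, 331 CPM in spermatocyte-like and 236 CPM in round spermatid-like cells. In migrating PGCs 71 members exceeded 500 CPM, and in round spermatid-like cells 6 did. The highest mean was that of Rpl13 in migrating PGCs (1367 CPM) and of Rpl41, the smallest ribosomal protein, in round spermatid-like cells (653 CPM). All 80 members passed the filter on low counts in each comparison, also the members with the fewest UMIs in total, Rpl3l (47122), Rpl23a (396602) and Rpl13a (433259). The authors counted only reads that aligned to 1 place, and what near-identical copies such as pseudogenes take from a member's count was not tested. The Spearman correlation of copy number with level over the members was −0.110. Near-identical copies (at least 95% identity over 200 bases) numbered 60 for Rpl21, 11 for Rpl10, 7 for Rps4x and 6 for Rpl36a, and none were found for 7 members, among them Rpl39, Rpl39l and Rpl3l. Rpl13a and Rpl36al also share exon bases with another gene on the same strand, so that their counts are uncertain.

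The comparisons of successive stages ask how the ribosomal protein mRNAs move as PGCs divide, arrest, rest and resume division. They were tested on pool sums with edgeR's quasi-likelihood test, adjusted over 24692 genes by Benjamini-Hochberg at 0.05. Counts were scaled by TMM, and since scalings shift the median of all genes, the members' median is also given relative to it. A scaling shifts members and all genes alike, so this distance is nearly fixed across scalings by construction and does not test them. From migrating to mitotic PGCs 2 of 80 members rose and 0 fell (3.98% of all genes rose and 3.77% fell), and the members' median log2 difference was −0.15 beside 0.00 for all genes. At an estimated log2 fold of 3.18 and 1.89, the 2 that rose were Rpl10l and Rpl39l.

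From mitotic to arrest PGCs 50 members fell and 2 rose, where 20.1% of all genes fell and 38.4% rose. The members' median was −0.38 and that of all genes 0.69, and their distance of −1.07 was −1.09 with DESeq2 size factors and −1.10 with total UMIs. With total UMIs, the scale of the shares and CPM, the members' median itself was 0.01 and that of all genes 1.11. The members' share overlapped between these 2 groups. The count itself depended on the scaling, as 24 members fell and 3 rose with DESeq2 size factors and 19 fell and 10 rose with total UMIs. The largest falls were those of Rpl10, Rpl22, Rpl13a and Rpl36al, and the rises those of Rpl3l and Rpl22l1.

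From arrest PGCs to quiescent prospermatogonia 64 members fell and 0 rose, where 10.2% of all genes fell and 8.45% rose. The members' median of −0.59 lay 0.80 below that of all genes, or 0.77 below it under either other scaling. Without the pool E15.5 R2, whose share was the highest of the arrest pools (6.49%), 41 members were called, and 25 fell in cells of 200000 to 400000 UMIs (7.56% of all genes). With DESeq2 size factors 41 fell and with total UMIs 38. Rpl7l1, a protein of the assembling large subunit, fell by 1.62 (SE 0.25, edgeR adjusted p = 5.32e-05), from 239, 313, 108 and 143 CPM to 71.0, 94.4, 90.9 and 74.6 CPM. Rpl41 fell by 1.03 (SE 0.15, edgeR adjusted p = 2.69e-05), from 913 ± 96.1 CPM to 544 ± 88.3 CPM (SD, n = 4 each). Rpl7a fell by 1.02 (SE 0.13, edgeR adjusted p = 2.29e-06). Markers of other cells moved along with this step: the 11 interstitial or peritubular markers summed to 31.2 to 209 CPM in arrest and 258 to 273 CPM in quiescent pools, with 10 of 11 at 10 CPM or more, and the 12 blood markers to 61.9 to 278 CPM and 377 to 703 CPM. Their part in the result was not tested.

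From quiescent prospermatogonia to spermatogonia 61 members rose and 2 fell, where 22.3% of all genes rose and 36.5% fell. The members' median of 0.51 lay 0.98 above that of all genes, and 0.99 above it under either other scaling. With total UMIs the members' median itself was 0.07 and that of all genes −0.92. Of the small subunit 28 of 31 members rose, and of the large subunit 33 of 49. With DESeq2 size factors 29 rose and 8 fell, with total UMIs 29 rose and 11 fell, and in cells of 200000 to 400000 UMIs 30 rose and 4 fell, where 17.1% of all genes rose. The 12 blood markers summed to 377 to 703 CPM in the quiescent pools and to 45.5 to 116 CPM in spermatogonia, the interstitial or peritubular markers to 258 to 273 CPM and 71.6 to 231 CPM, and their part in the result was not tested. The largest rise was that of Rpl7l1 by 2.15 (SE 0.25, edgeR adjusted p = 2.16e-08), back to 269 ± 16.9 CPM (SD, n = 6).

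**Figure D3:**
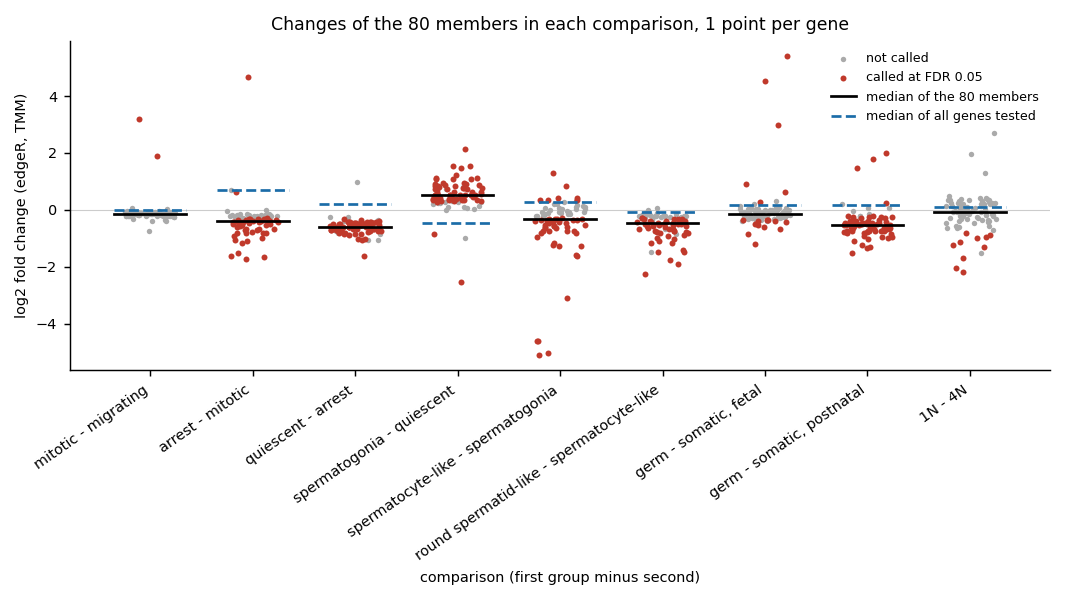
Log2 difference of each of the 80 members in the 9 comparisons (1 point for each gene), with the members' median in black and the median of all genes tested as a dashed blue line. With TMM scaling the members' median was −0.38 beside 0.69 in arrest against mitotic PGCs and 0.51 beside −0.47 in spermatogonia against quiescent prospermatogonia.

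From spermatogonia to spermatocyte-like cells 42 members fell and 7 rose, where 33.1% of all genes fell and 41.7% rose. The members' median of −0.32 lay 0.61 below that of all genes (0.60 and 0.66 below it under the other scalings). With DESeq2 size factors 36 fell and 12 rose, with total UMIs 78 fell and 0 rose, and in cells of 200000 to 400000 UMIs 33 fell and 24 rose (30.1% and 41.9% of all genes), with a members' median of −0.07. The 4 X-linked members made the largest falls. Rises past the threshold included Rpl10l, Rpl39l, Rpl36 by 0.43 (SE 0.12, edgeR adjusted p = 0.00146) and Rpl41 by 0.40 (SE 0.13, edgeR adjusted p = 0.00668), and with total UMIs none of these calls was kept (Rpl10l 0.61 and Rpl39l 0.13).

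All 4 X-linked members were abundant in PGCs and close to absent in spermatocyte-like cells. Migrating PGCs include E9.5 cells and some E10.5 cells of unstated sex. The part of sex in their X-linked levels was not tested. Rpl10 had 637, 660.4, 663, 657 and 762 CPM in migrating PGCs and 596 to 701 CPM in mitotic PGCs. In arrest PGCs it was at 223, 440.1, 131 and 161 CPM and in quiescent prospermatogonia at 161, 196, 202 and 162 CPM, so that all arrest pools lay below all mitotic pools and only E15.5 R2 stood apart. Spermatogonia ranged from 363 to 407 CPM with a median of 381 CPM. Spermatocyte-like pools were at 3.80, 9.95, 10.8, 11.2 and 12.8 CPM, and round spermatid-like pools at 7.80, 7.43, 8.11, 13.6 and 17.8 CPM, without overlap with any earlier group. Rpl10 fell by 1.74 from mitotic to arrest PGCs (log2, SE 0.32, edgeR adjusted p = 2.92e-05), rose by 1.54 in spermatogonia (SE 0.30, edgeR adjusted p = 6.46e-05) and fell by 4.61 in spermatocyte-like cells (SE 0.32, edgeR adjusted p = 2.80e-14).

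Rpl39 kept 804 to 844 CPM in migrating PGCs, was at 445, 623, 354 and 430.0 CPM in arrest PGCs and at 278, 265, 275 and 285 CPM in quiescent prospermatogonia. In spermatogonia it was at 357 to 428 CPM at PND5 and PND6 and at 197 and 188 CPM at PND7, so that the 6 pools did not form 1 level. Its difference between mitotic and arrest PGCs of −1.05 (SE 0.43, edgeR adjusted p = 0.0368) missed the threshold in 21 of 44 alternatives. Spermatocyte-like cells held 2.11, 10.7, 7.46, 8.19 and 12.9 CPM of it, a fall by 4.63 (SE 0.44, edgeR adjusted p = 5.32e-11).

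In arrest PGCs Rpl36a and Rps4x were at 701 ± 76.5 CPM and 706 ± 70.4 CPM (SD, n = 4), beside 659 CPM each in mitotic PGCs. The differences of −0.30 (SE 0.43, edgeR adjusted p = 0.577) and −0.29 (SE 0.63, edgeR adjusted p = 0.732) were within their errors, and they were 0.09 and 0.10 with total UMIs, the scale of the CPM given here. In quiescent prospermatogonia Rpl36a had 490.4, 394, 297 and 447 CPM and Rps4x had 508, 418, 428 and 570.0 CPM. The 2 genes then parted, as Rpl36a was at 488 to 546 CPM in spermatogonia and Rps4x at 161 to 203 CPM. No pool of spermatogonia reached the lowest quiescent value of Rps4x, but its difference of −0.99 (SE 0.57) was not past the threshold (edgeR adjusted p = 0.132). In spermatocyte-like cells Rpl36a fell by 5.02 (SE 0.45, edgeR adjusted p = 1.28e-11) to 1.79 and 12.7 CPM in PND30 R1 and R2, 7.67 CPM in PND35 R1, 12.9 CPM in Adult R2 and a little more in PND35 R2. Rps4x fell by 5.12 (SE 0.66, edgeR adjusted p = 3.65e-08) to 1.13, 0.744, 1.02, 2.85 and 10.2 CPM, of which 10.2 CPM belonged to Adult R2.

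Of 1395 spermatocyte-like cells (median 364143 UMIs), 56.5% had at least 1 UMI of Rpl10, 48.7% of Rpl36a, 45.5% of Rpl39 and 26.2% of Rps4x. None of the 4 genes changed between spermatocyte-like and round spermatid-like cells past the threshold. In the early spermatocyte-like cells of PND8 to PND14 the levels lay in between, with 137 to 407 CPM of Rpl10, 197 to 486 CPM of Rpl36a, 47.0 to 389 CPM of Rpl39 and 32.0 to 116 CPM of Rps4x. The few spermatocyte-like cells of PND12 R2 and PND14 R2 had 168 and 67.1 CPM of Rpl10.

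The autosomal Rpl10l and Rpl39l were lower in migrating PGCs than in any later stage group and were kept in spermatocyte-like cells. Rpl10l, a retrocopy of Rpl10 known to be needed for male meiosis, had 2.20 and 4.27 CPM at E9.5 and 8.22, 17.9 and 23.9 CPM at E10.5. In mitotic PGCs it was at 79.8, 104, 148 and 92.3 CPM, above all migrating pools, a rise by 3.18 (SE 0.36, edgeR adjusted p = 1.39e-06, 2.62 to 3.69 over 44 alternatives). It had at least 1 UMI in 37.4% of migrating and in 96.9% of mitotic PGCs. Later levels were 225 ± 20.9 CPM in arrest PGCs, 156 ± 19.2 CPM in quiescent prospermatogonia (SD, n = 4 each) and 192 ± 6.81 CPM in spermatogonia (SD, n = 6). Spermatocyte-like pools, at 285, 308, 286, 307 and 281 CPM, all lay above the spermatogonia (182 to 198 CPM). This rise by 1.31 (SE 0.31, edgeR adjusted p = 3.54e-04) was not past the threshold with total UMIs or without replicate 2.

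Rpl39l, the counterpart of Rpl39, went from 41.0, 25.7, 84.2, 145 and 259.8 CPM in migrating PGCs to 394, 431, 487 and 407 CPM in mitotic PGCs. The rise by 1.89 (SE 0.34, edgeR adjusted p = 5.45e-04) was lost without replicate 1 and without replicate 2. From then on Rpl39l stayed between 388 and 632 CPM in every stage pool. Rpl39 exceeded Rpl39l in each migrating and mitotic pool, and in each spermatocyte-like pool Rpl39l was at 544 to 632 CPM and Rpl39 at 2.11 to 12.9 CPM. Rpl36al behaved otherwise: it fell by 1.52 from mitotic to arrest PGCs (SE 0.23, edgeR adjusted p = 1.83e-06), rose by 1.48 in spermatogonia (SE 0.21, edgeR adjusted p = 1.14e-06) and was at 94.4 to 129.7 CPM in the 5 spermatocyte-like pools, with no call there.

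**Figure D4:**
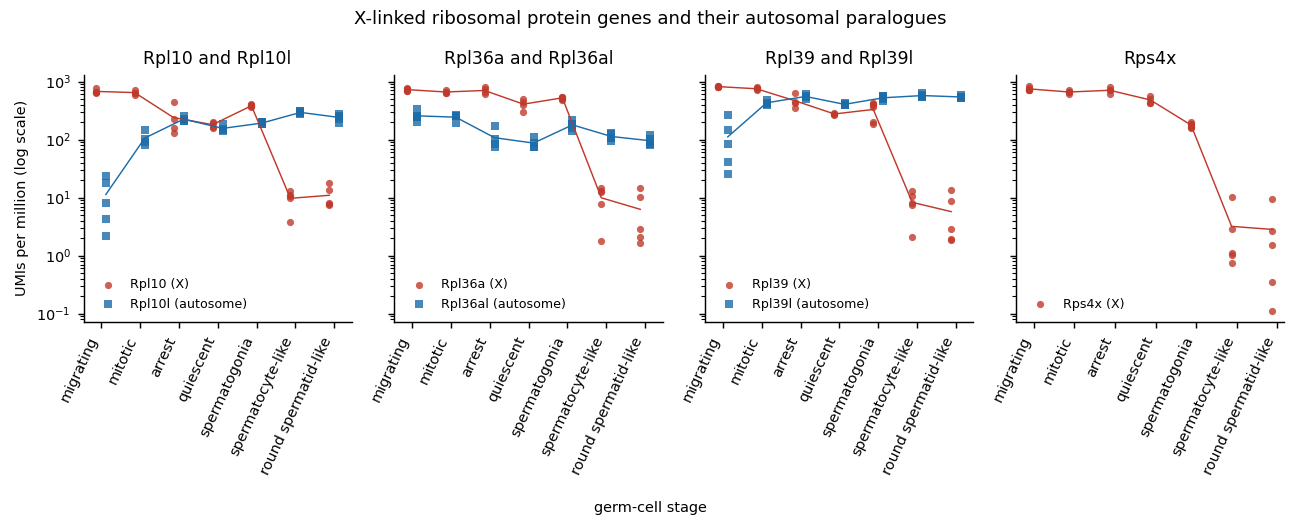
CPM of the X-linked members and their autosomal paralogues in each stage pool (points, log axis), with lines through the group means. Rpl10 dropped from 363 to 407 CPM in spermatogonia to 3.80 to 12.8 CPM in spermatocyte-like cells, where Rpl10l lay at 281 to 308 CPM.

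Among the other paralogues Rpl3l was highest in arrest PGCs and quiescent prospermatogonia. It had at most 6.76 CPM in migrating and 0.121 to 2.46 CPM in mitotic PGCs, then 28.1, 11.8, 62.2 and 43.8 CPM in arrest PGCs and 81.5, 80.1, 86.5 and 84.0 CPM in quiescent prospermatogonia. It rose by 4.66 on entry into arrest (SE 0.97, edgeR adjusted p = 1.70e-04), by 3.40 without replicate 1 and by 8.00 without replicate 2, and fell by 2.55 in spermatogonia (SE 0.75, edgeR adjusted p = 0.00453), to 7.81 to 12.3 CPM. The quiescent pools of Rpl3l overlapped with no other stage.

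Rpl22, an RNA-binding protein of the large subunit, and its paralogue Rpl22l1 went opposite ways on entry into arrest and in spermatogonia. From arrest PGCs to quiescent prospermatogonia neither was called (−0.38 and −0.27). Rpl22 was at 539 to 618 CPM in mitotic PGCs, at 203, 374, 153 and 186 CPM in arrest PGCs, at 203 to 250.0 CPM in quiescent prospermatogonia and at 442 to 482 CPM in spermatogonia. Rpl22l1 was at 169 to 219 CPM, then at 350.5, 446, 342 and 379 CPM, at 347 to 431 CPM and at 119 to 217 CPM in the same groups. Entering arrest, Rpl22 fell by 1.67 (SE 0.22, edgeR adjusted p = 2.77e-07) and Rpl22l1 rose by 0.61 (SE 0.20, edgeR adjusted p = 0.0103), the latter not past the threshold without E15.5 R2 or without replicate 2. In spermatogonia Rpl22 rose by 1.53 (SE 0.21, edgeR adjusted p = 4.66e-07) and Rpl22l1 fell by 0.86 (SE 0.18, edgeR adjusted p = 1.60e-04). This fall of Rpl22l1 was not past the threshold without replicate 2. Rpl22l1 shares exon bases with a gene on the other strand, whose reads could not be told apart if the counting ignored strand. Rps27l, the paralogue of Rps27, fell by 1.17 on entry into arrest (SE 0.13, edgeR adjusted p = 8.06e-09), from 763 to 914 CPM to 429 to 547 CPM.

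From spermatocyte-like to round spermatid-like cells 51 members fell and 0 rose, where 26.2% of all genes fell and 29.1% rose. Both classes come from the same 5 pools, and the fit did not pair them, so errors and p-values take their sums as independent. The members' median of −0.47 lay 0.41 below that of all genes (0.35 and 0.38 below it under the other scalings), and with DESeq2 size factors 22 fell and 3 rose. Rpl14 fell the most, by 2.25 (SE 0.17, edgeR adjusted p = 2.47e-12), from 203, 266, 243, 261 and 240.2 CPM to 29.1, 31.5, 53.9, 99.5 and 71.2 CPM. Rpl10a fell by 1.91 (SE 0.18, edgeR adjusted p = 2.39e-10) and Rps3, a small subunit protein that also acts in DNA repair, by 1.76 (SE 0.15, edgeR adjusted p = 2.35e-11). Rps27a, made as a fusion with ubiquitin, fell from 433 to 506 CPM to 112 to 242 CPM (edgeR adjusted p = 5.30e-12). For each of these 4 genes every round spermatid-like pool lay below every spermatocyte-like pool.

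The sort by DNA content at PND30 sets cells of 1N against cells of 4N DNA content without clusters, in 2 replicates. In each replicate both gates come from the same pool. The fit did not pair them, so errors and p-values take their sums as independent. By cluster the gates were mixed. Round spermatid-like and spermatocyte-like cells numbered 259 and 27 in 1N, 176 and 97 in 2N, and 43 and 242 in 4N. The members' share was 2.07% and 2.23% in 1N, 2.03% and 2.46% in 2N and 2.31% and 2.66% in 4N cells. Of the members 10 fell and 0 rose in 1N against 4N cells (12.4% of all genes fell and 14.1% rose), with a median of −0.09 beside 0.11 for all genes. The members thus fell about as often as all genes, and the genes below are given as values of single members. The 1N and 4N cells are in part those of the round spermatid-like and spermatocyte-like pools, so the 2 comparisons share samples. Rpl14 was at 177 and 188 CPM in 4N, 52.9 and 156 CPM in 2N and 32.4 and 45.7 CPM in 1N cells (1N against 4N −2.05, SE 0.33, edgeR adjusted p = 0.0104). Rpl10a was at 188 and 206 CPM in 4N, 51.0 and 142 CPM in 2N cells and at 47.8 CPM in R2 and less in R1 of the 1N cells (−2.18, SE 0.36, edgeR adjusted p = 0.0108). Rps3 (−1.69, SE 0.27, edgeR adjusted p = 0.0103), Rps27a (−1.31, SE 0.25, edgeR adjusted p = 0.0135) and Rpl7l1 (−1.23, SE 0.33, edgeR adjusted p = 0.0310) were lower as well, followed by Rpl7a, Rpl9, Rpl5, Rps15 and Rpl15. The count rests on single pools: 0 members were called without 1N R2, 3 without 4N R2 and 6 without 4N R1. The X-linked members were at 10.3 CPM or less in all gates, and Rpl10l was at 202 to 321 CPM in each of them. At these low levels the 1N against 4N estimates were 1.29 for Rpl10 (SE 0.55) and 2.69 for Rpl36a (SE 1.09). They were 1.97 for Rpl39 (SE 0.74) and 0.21 for Rps4x (SE 1.85), and none was past the threshold in this fit.

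**Figure D5:**
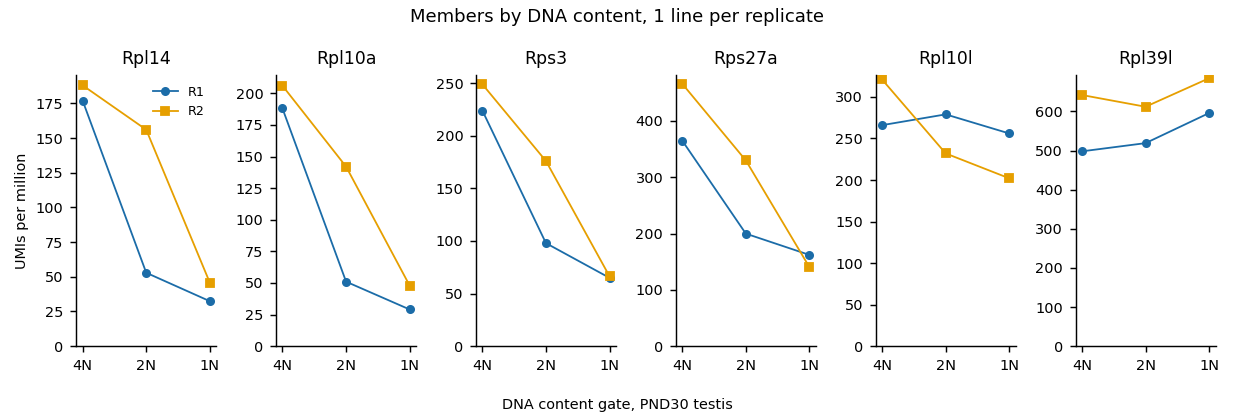
CPM of Rpl14, Rpl10a, Rps3, Rps27a, Rpl10l and Rpl39l in PND30 cells sorted as 4N, 2N and 1N, 1 line for each replicate. Rpl14 went from 177 and 188 CPM in 4N to 32.4 and 45.7 CPM in 1N cells, while Rpl39l was at 498 and 642 CPM in 4N and at 596 and 685 CPM in 1N cells.

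Germ cells were set against the somatic cells of the same pools, with the pool as a block. Fetal somatic cells were sorted as Negative. Postnatal ones were named by cluster among cells picked for the look of germ cells, so they need not stand for all somatic cells of the testis. The part of this choice in the differences was not tested. In 15 fetal pools the share was 6.01 ± 0.815% in germ and 6.46 ± 1.02% in somatic cells (SD, n = 15), germ being higher in 5 of 15. Somatic cells had fewer UMIs, and among cells of 100000 to 200000 UMIs germ cells were higher in 11 of 11 pools, at 8.66% against 7.05%. In 13 postnatal pools (PND0 to PND8) the share was 4.89 ± 0.433% in germ and 6.19 ± 0.809% in somatic cells (SD, n = 13), and within that range of UMIs 6.90% against 6.68%, germ being higher in 5 of 7. In both ages the mean difference thus had the other sign within this range of UMIs than over all cells.

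Of the members 6 were higher and 12 lower in fetal germ cells (34.4% and 26.9% of all genes), and 34 higher and 0 lower in cells of 200000 to 400000 UMIs (22.4% and 22.4% of all genes). Without pool E13.5 R2, E14.5 R1 or E15.5 R2 the called members numbered 40, 28 and 32. In postnatal germ cells 4 were higher and 68 lower (36.4% and 28.2% of all genes), and 3 higher and 8 lower in cells of 200000 to 400000 UMIs (16.7% and 19.1%).

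Rpl10l was at 141 CPM in fetal germ and 4.07 CPM in fetal somatic cells (log2 5.42, SE 0.48, edgeR adjusted p = 2.32e-08), higher in 15 of 15 pools. Rpl39l was at 470.4 and 25.7 CPM (log2 4.54, SE 0.40, edgeR adjusted p = 2.11e-08), also in 15 of 15. Rpl3l (log2 2.99, SE 0.77, edgeR adjusted p = 0.00233), Rpl23a (0.92, SE 0.14, edgeR adjusted p = 2.00e-05) and Rpl22l1 (0.63, SE 0.12, edgeR adjusted p = 1.74e-04) were higher in germ cells as well. In somatic sums Rpl10l reached 2.88% and Rpl39l 5.46% of their germ cell level, beside 4.38% for Ddx4 and 5.20% for Dazl, markers of germ cells. In postnatal pools the same figures were 24.9% and 33.7% beside 31.8% for Ddx4 and 35.2% for Dazl. The part of germ cell RNA in the members' somatic values was not tested. Postnatal differences were 2.01 for Rpl10l (SE 0.22, edgeR adjusted p = 3.18e-07) and 1.47 for Rpl39l (SE 0.16, edgeR adjusted p = 2.60e-07), each higher in 13 of 13 pools.

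The X-linked members lay on the other side, in postnatal pools together with most members (68 lower and 4 higher, median −0.52). Autosomal members such as Rpl13a (−1.22) and Rpl41 (−1.08) were lower in postnatal germ cells too. Postnatal germ cells had 322 CPM of Rpl10 and somatic cells 672 CPM (log2 −1.33, SE 0.15, edgeR adjusted p = 4.86e-07), and 361 and 742 CPM of Rpl39 (log2 −1.31, SE 0.11, edgeR adjusted p = 7.83e-09). Rps4x differed by −1.52 (SE 0.14, edgeR adjusted p = 6.22e-08). Each of these 3 genes was lower in germ cells in 13 of 13 pools and past the threshold in both ranges of UMIs. Rpl36a differed by −0.83 (SE 0.14, edgeR adjusted p = 4.51e-05), and by −0.30 in cells of 200000 to 400000 UMIs, where the call was lost (edgeR adjusted p = 0.214). In fetal pools Rpl10 was lower in germ cells by 1.20 (SE 0.28, edgeR adjusted p = 9.70e-04), 445 against 828 CPM, with 1 of 15 pools the other way. Rpl39 differed by −0.84 (SE 0.22, edgeR adjusted p = 0.00308), and this call was lost in both ranges of UMIs. In fetal cells of 200000 to 400000 UMIs the difference of Rpl10, −0.83, was not past the threshold (edgeR adjusted p = 0.0534), and those of Rpl36a and Rps4x changed sign.

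Genes around the ribosome are given for the same comparisons, in which 20.1% of all genes fell on entry into arrest, 10.2% fell in quiescent prospermatogonia, 22.3% rose in spermatogonia and 33.1% fell in spermatocyte-like cells. Of the 7 ribosomal proteins outside the symbol rule (among them Rplp0, Rpsa and Rack1), 5 fell on entry into arrest and 0 rose, 3 fell in quiescent prospermatogonia and 4 rose in spermatogonia. Of 23 genes of RNA polymerase I and ribosome assembly, 17 fell and 1 rose on entry into arrest, 10 fell in quiescent prospermatogonia, 21 rose and 1 fell in spermatogonia, and 16 fell and 3 rose in spermatocyte-like cells. Their medians were −1.07, −0.56, 1.09 and −0.99. Rrn3, which brings RNA polymerase I to the ribosomal DNA, fell by 2.41 on entry into arrest (SE 0.31, edgeR adjusted p = 1.46e-07) and rose by 1.37 in spermatogonia (SE 0.28, edgeR adjusted p = 1.42e-04). Rrp12, a factor of subunit export, was the 1 assembly gene that rose in arrest, by 0.98 (SE 0.18, edgeR adjusted p = 3.75e-05), and it was also the 1 that fell in spermatogonia. Dkc1, the X-linked pseudouridine synthase of ribosomal RNA, fell by 2.68 on entry into arrest (SE 0.48, edgeR adjusted p = 2.29e-05) and by 5.47 in spermatocyte-like cells (SE 0.48, edgeR adjusted p = 9.71e-12).

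Of 15 translation factors 8 fell on entry into arrest, 10 fell in quiescent prospermatogonia and 8 rose in spermatogonia, none going the other way. Eif2s3x, the X-linked subunit of the initiation factor eIF2, fell by 2.86 on entry into arrest (SE 0.33, edgeR adjusted p = 2.26e-08). In spermatocyte-like cells Eif2s3x, Eif4b and Eef1d fell past the threshold, while Pabpc1, Btf3, Eif4g2, Eif3e and Eef2 rose. Of 13 regulators of ribosomal protein mRNA 9 fell on entry into arrest, 3 fell in quiescent prospermatogonia and 10 rose in spermatogonia. Mycn, a transcription factor of growing cells, fell by 4.11 (SE 0.66, edgeR adjusted p = 4.72e-06) and rose by 2.74 in spermatogonia (SE 0.59, edgeR adjusted p = 2.42e-04). Larp1, which binds the pyrimidine tract of these mRNAs, fell by 1.32 on entry into arrest (SE 0.20, edgeR adjusted p = 1.75e-06) and rose by 2.32 in spermatocyte-like cells (SE 0.17, edgeR adjusted p = 1.51e-13). Of the other regulators only Mtor rose past the threshold in spermatocyte-like cells, by 0.63. Mycn, Eif4ebp1, Rps6kb2, Myc, Max, Rps6kb1 and Rheb fell there, Mycn by 6.07 and Rheb by 0.69. From migrating to mitotic PGCs no gene of these 4 lists was called. All counts and differences of these lists are with TMM scaling alone, and the counts of members moved with the scaling.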

How the data were processed

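Per the labels and the study's methods, the authors picked single cells into lysate, made cDNA with barcoded oligo(dT) primers, kept its 3′ ends and sequenced them. Bases were called with CASAVA 1.8 per the submitters' processing notes. Reads were tagged with UMI-tools, trimmed with seqtk, mapped to mm10 with STAR and counted with featureCounts, using uniquely aligned reads, and the authors deposited UMI counts for each gene and cell without normalization. Whether the counting used strand is not given in the sources used here. The GEO samples are 147 libraries whose labels name no condition, so the deposited table of cells supplied time-point, genotype, gate and replicate for every cell. Replicates are biological replicates per the study's methods, and p-values cover the spread between pools only.

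Wild-type cells with more than 2000 genes and 10000 to 1000000 UMIs were kept. They were clustered on 1000 variable genes, 30 principal components and 20 neighbours (leidenalg 0.10.2, resolution 0.3), leaving out the members, all ribosomal protein genes and the gene lists. Clusters were named from markers, and 6 clusters with 1039 cells stayed unnamed. No doublet caller was run, since cells were picked or sorted singly. UMI counts were summed per pool and class over at least 10 cells and tested with edgeR 4.0.16 (R 4.3.3; TMM, filterByExpr, quasi-likelihood F test, Benjamini-Hochberg at 0.05). The stage groups were fitted together (33 sums, 24692 genes), fetal and postnatal germ against somatic cells with the pool as a block (15018 and 15546 genes), and 1N against 4N cells apart (19167 genes). The fit was also run on simulated data, and its outcome there is not given here. Fold changes are log2, and errors are SD over pools or SE of the fit. No 2 sums were identical (0 pairs).

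Named are the X-linked members, all paralogues among the members, and in each comparison up to 4 members either way that passed the threshold with the biggest log2 difference, at a mean log2 CPM of at least 3. The members and lists were chosen with earlier results of these data known. Alternatives were DESeq2 1.42.0 size factors and its Wald test, total UMIs, no filter on counts, at least 30 cells, resolution 0.6, a library series covariate, a replicate block, the sorting gate alone, no pool block, other denominators, leaving out each pool or replicate and, chosen after seeing the data, cells of 100000 to 200000 or 200000 to 400000 UMIs. Near-identical copies were found with blastn 2.17.0 in GENCODE vM21 transcripts, and promoters are those of RefSeq. Intervals of shares of cells are not given, as cells of 1 pool are not replicates.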

Additional observations from a re-analysis of the deposited data

Results flagged for a closer look

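Within each stage group the pool farthest from the rest was compared with the spread of its group for the X-linked members, the paralogues and the share, 84 groups in all. In 7 of them (8.33%) its gap exceeded Dixon's 95% critical value, where chance gives about 1 in 20.

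Rpl10 was higher in the E10.5 R3 pool of migrating PGCs, at 762 CPM, than in the other 4 pools (637 to 663 CPM). Rpl3l was at 6.76 CPM in E10.5 R2 and at most 1.31 CPM in the other migrating pools. Rpl7l1 was lowest in the PND6 R1 spermatogonia, at 236 CPM, beside 269 to 281 CPM in the other 5 pools, and highest in the PND35 R2 spermatocyte-like cells, at 115 CPM, beside 83.1 to 91.7 CPM. Rps4x stood apart in Adult R2, with 10.2 CPM in spermatocyte-like cells (0.744 to 2.85 CPM in the other pools) and 9.53 CPM in round spermatid-like cells (0.112 to 2.65 CPM), 2 classes of 1 pool. Rpl3l was at 0.757 CPM in the PND35 R2 round spermatid-like cells and at 0.0893 to 0.281 CPM in the others.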

How the results depend on the processing

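Depth and scaling set the limits. Counts of members called moved with the scaling. The members' median relative to all genes hardly changes with the scaling by its construction, so only the settings on cells, pools and filters bear on it. It kept its sign in the 6 stage comparisons under every setting run (−0.19 to −0.10, −1.28 to −0.71, −0.91 to −0.48, 0.70 to 1.08, −0.66 to −0.43 and −0.48 to −0.34 in the order of the stages). In fetal germ against somatic cells it ranged from −0.94 to 0.35. With DESeq2 size factors members called were 27 (arrest), 41 (quiescent), 37 (spermatogonia) and 25 (round spermatid-like). They were 4, 29, 38, 40 and 78 from mitotic PGCs to spermatocyte-like cells with total UMIs, and 27 (arrest), 36 (spermatogonia) and 24 (round spermatid-like) with the DESeq2 Wald test. In cells of 200000 to 400000 UMIs they were 25 (quiescent), 34 (spermatogonia), 34 (fetal) and 11 (postnatal), and in cells of 100000 to 200000 UMIs 53 (fetal) and 25 (postnatal). By the sorting gate alone they were 28 (fetal). Leaving out pools or replicates gave 1 to 3, 8 to 64, 3 to 72, 33 to 71, 28 to 53 and 28 to 69 called members in the stage comparisons. It gave 14 to 40 (fetal, with 40 without E13.5 R2, 32 without E15.5 R2 and 28 without E14.5 R1), 66 to 75 (postnatal) and 0 to 9 (1N against 4N). Without all pools of replicate 1 the stage counts included 1 (mitotic), 8 (arrest), 10 (quiescent), 33 (spermatogonia) and 32 (spermatocyte-like), and without replicate 2 they included 1, 29 and 3 (mitotic, arrest, quiescent) and 28 each for the last 2 stages. The smaller number of pools is part of that setting.

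Between spermatogonia and spermatocyte-like cells Rpl36al (−0.67), Rpl22l1 (−0.42) and Rps27l (−0.51) turned negative with total UMIs alone. Between fetal germ and somatic cells Rpl36a (0.09 and 0.08) and Rps4x (0.22 and 0.08) turned positive in cells of 100000 to 200000 and 200000 to 400000 UMIs. The cause was not tested.

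The share with 7 further ribosomal protein genes was 7.13%, 6.67%, 5.25%, 5.54%, 2.88% and 2.22% in migrating PGCs, mitotic PGCs, quiescent prospermatogonia, spermatogonia, spermatocyte-like and round spermatid-like cells. The share of the 80 members alone was, in cells of 100000 to 200000 UMIs, 9.30%, 9.08%, 8.12%, 7.22%, 7.34%, 3.51% and 2.24% over the 7 stages. In cells of 200000 to 400000 UMIs the 80 members had 3.02% and 2.18% in the last 2 stages, and at resolution 0.6 they had 2.21% in round spermatid-like cells.

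The replicate block gave 2, 52, 65, 63, 50 and 51 called members and changed no count by over 1.5 times. Replicate numbers did not pair the pools, as pools of the same number in different stages correlated with a median of 0.0267 (219 pairs) and those of different numbers with −0.0294 (246 pairs).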

Other observations

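Other pools lie outside the comparisons above and are given as values. In the epiblast-like, mesoderm-like and endoderm-like cells of E6.5 to E8.5 the members took 3.78% to 6.35% of UMIs. Rpl10l was at 0.877 to 14.2 CPM and Rpl39l at 3.35 to 71.4 CPM in these cells. The E8.5 R2 germ cells had a share of 6.32% and 7.64 CPM of Rpl39l.

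The large unnamed cluster of Adult R1, led by Lcn2, Agt and the steroid enzyme gene Cyp17a1 together with the meiotic genes Meiob and Prss50, had a share of 3.83%. It held 158 CPM of Rpl10, 191 CPM of Rpl36a, 129 CPM of Rpl39 and 39.8 CPM of Rps4x, above all spermatocyte-like pools of PND30, PND35 and Adult R2. Rpl10l was at 270.0 CPM and Rpl39l at 570.3 CPM in it. The Leydig-like and Sertoli-like cells of the same pool had shares of 3.73% and 2.48%.

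In the spermatocyte-like cells of PND12 R2 and PND14 R2 the share was 3.01% and 3.86%, and Rpl36a was at 203 and 102 CPM, Rpl39 at 115 and 84.5 CPM and Rps4x at 30.3 and 12.9 CPM. E13.5 germ cells had 728 and 783 CPM of Rpl10 and 44.2 and 65.6 CPM of Rpl10l, and E14.5 germ cells 551 and 548 CPM and 105 and 129.8 CPM.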
